A study of Rattus norvegicus with 16 samples.

Results

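De novo lipogenesis is the making of fatty acids from carbohydrate carbon, and 10 genes of this pathway were followed in the epididymal white fat of young rats. They encode enzymes of the pathway (Acly, Acaca, Fasn, Elovl6, Scd), enzymes that supply its reducing power or the sugars that lead there (Me1, Tkt), the lipogenesis factor Thrsp, and the transcription factors Srebf1 and Mlxipl. The genes were chosen by name, and array probes were assigned to them through the RefSeq accession that the array gives for each probe. Of 15162 genes named in this way, 9 were members, measured by 11 probes of 30344. Elovl6 and Me1 had 2 probes each. No probe could be assigned to Srebf1, so its level and the relation of the other genes to it were not analysed here.

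In fat cells, ATP citrate lyase (Acly) splits citrate into cytosolic acetyl-CoA, acetyl-CoA carboxylase (Acaca) turns that into malonyl-CoA, and fatty acid synthase (Fasn) joins these units into palmitate with NADPH as the reductant. The product is lengthened by Elovl6 and desaturated by Scd. The pathway is known for its control at the level of transcription, by SREBP-1c (the product of Srebf1), which follows insulin, and by ChREBP (the product of Mlxipl), which follows glucose metabolites. A diet rich in fat is known to lower these transcripts in white fat.

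The animals were male rats killed in the fed state at 30 days of age. Their dams ate a high-fat diet while pregnant and while nursing, and the weaned pups were kept on it. The dams of the HF group (8 offspring) received low-fat condensed milk as the vehicle, and the dams of the HFT group (8 offspring) received 25 mg per kg body weight of GSPE, a grape seed procyanidin extract, in the same milk. The study also had groups on a standard diet, which were not analysed here, so every comparison lies within the high-fat diet. The sources used here do not name the strain. They do not say which pups were littermates either, and each pup was counted as independent in the tests.

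Total RNA of each animal was hybridised to 1 single-colour Agilent array, 4 arrays to a slide on 4 slides, with 2 HF and 2 HFT arrays on each. HF arrays lay at positions 1 and 2 and HFT arrays at positions 3 and 4, so position and group cannot be told apart. A level is the log2 of the processed intensity minus the array's own 75th percentile. Levels of different probes are not set against each other, since probes differ in how brightly they bind. The 75th percentile ran from 753 to 1366 intensity units, and 68.2% to 73.5% of probes were well above background on an array. All 11 probes of the lipogenic genes were well above background on all 16 arrays and none was saturated.

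The fat markers Adipoq and Fabp4 were well above background on all 16 arrays. Some arrays carried transcripts of neighbouring tissue. The epididymal gene Lcn5 was high in HF 8, HFT 23 and HFT 28 (levels of 3.42 to 4.12, against -6.23 to -2.71 in the other 13), and HFT 28 alone was high for the median of a list of epididymal genes (12 genes measured), 3.19 log2 units above the median array. The urothelial list (7 genes measured) was high in HFT 22, HFT 24 and HF 35, at 7.16, 8.67 and 8.10 log2 units above the median array. Hepatocyte genes were high in HF 10 and HFT 36 and smooth muscle genes in HF 9, at 3.93, 3.35 and 3.45. No array was high for the macrophage, endothelial, mesothelial or brown fat list, though Ucp1 of brown fat ranged from -0.80 to 6.75. The part of this tissue in any difference between animals was not tested. Results are therefore also given without these arrays. Animals are called by their group and the number in the labels.

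Mlxipl encodes ChREBP and was the only transcription factor of the set that could be measured. Its level in HF ran from 0.11 through a median of 1.10 to 1.52, and in HFT from -0.05 through 0.76 to 1.5. The groups overlapped over nearly their whole range, and the lowest animals were HFT 22 and HFT 28. The mean was 1.0 ± 0.48 (SD, n = 8) in HF and 0.72 ± 0.57 (SD, n = 8) in HFT, a difference of -0.28 (SE 0.25, 95% interval -0.81 to 0.25). This was the largest difference of the 9 genes, and in limma's test it had an unadjusted p of 0.280 and an adjusted p of 1.0 over 21808 probes. Within slides the difference was -0.76, -0.31, 0.30 and -0.34, so slide 3 ran opposite to the others.

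Upstream sequences were read for the genes that the RefSeq promoter table holds (build GRCr8), which were 7 of the 10, without Fasn, Acaca and Elovl6. The 250 bases before the start of Mlxipl, of Acly, whose level followed that of Mlxipl across animals, and of Thrsp, whose level followed it least, are shown 5′ to 3′ on the gene's strand, with matches to CCAAT, or to its reverse complement ATTGG, in capitals. They lie upstream of transcripts of these genes on the minus strand, at chr12:27213661-27213910 for Mlxipl, chr10:85963632-85963881 for Acly and chr1:161138965-161139214 for Thrsp.
Mlxipl: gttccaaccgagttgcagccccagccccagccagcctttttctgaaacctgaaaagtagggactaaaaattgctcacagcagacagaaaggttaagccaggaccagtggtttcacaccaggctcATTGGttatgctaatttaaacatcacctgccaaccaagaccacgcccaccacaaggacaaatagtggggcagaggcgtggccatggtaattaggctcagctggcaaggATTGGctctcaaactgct
Acly: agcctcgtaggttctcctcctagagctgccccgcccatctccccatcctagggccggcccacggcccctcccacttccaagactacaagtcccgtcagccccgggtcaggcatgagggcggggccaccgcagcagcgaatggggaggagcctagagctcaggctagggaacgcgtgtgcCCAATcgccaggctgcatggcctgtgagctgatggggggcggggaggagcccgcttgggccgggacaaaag
Thrsp: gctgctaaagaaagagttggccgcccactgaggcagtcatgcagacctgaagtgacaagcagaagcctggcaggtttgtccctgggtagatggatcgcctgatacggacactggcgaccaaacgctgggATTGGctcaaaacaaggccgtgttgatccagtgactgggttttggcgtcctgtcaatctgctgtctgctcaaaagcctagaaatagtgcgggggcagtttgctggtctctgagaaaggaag
In Mlxipl ATTGG lay at -126 to -122 and at -18 to -14 from the start, and in Thrsp at -121 to -117. In Acly CCAAT lay at -71 to -67, beside 3 matches to the GC box GGGCGG on either strand. Acly starts in the table at 974 bases inside the outer end of the gene. CCAAT is a common sequence, found on either strand in 34.0% of the 33469 rat promoters of this length, and GGGCGG in 30.5%. The E-box CACGTG, which is in 5.59% of promoters, the sterol response element TCACNCCAC, in 0.974%, and the carbohydrate response element, a spaced pair of E-boxes, in 0%, had no match in any of the 9 windows of these 7 genes. TATAAA, in 12.9% of promoters, matched only in Tkt. These are matches of letters in a short window, and nothing follows from them about binding.

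The enzymes that make malonyl-CoA and palmitate showed no difference between the groups beyond their spread. Acly levels were 4.87, 6.42 and 6.99 (lowest, median and highest) in HF and 5.20, 5.89 and 7.06 in HFT. The lowest animal was HF 12 and the highest HFT 24, so each group reached past the other at 1 end, and the difference was -0.08 (SE 0.33, 95% interval -0.78 to 0.62). Acaca levels were -0.52, 0.64 and 1.20 in HF and -0.69, 0.22 and 1.05 in HFT, with a difference of -0.15 (SE 0.28, interval -0.75 to 0.45). For Fasn they were 6.70, 7.62 and 7.77 in HF and 6.37, 7.31 and 7.71 in HFT. The groups overlapped for both enzymes, and the Fasn difference was -0.08 (SE 0.22, interval -0.56 to 0.39). In Fasn, Acaca and Acly alike, 2 of the 8 HFT animals lay above the HF median. The count was the same for Mlxipl, Scd, Elovl6 and the brighter Me1 probe. For Elovl6 and Me1 the mean difference was nevertheless above 0.

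Elovl6, the elongase of palmitate, had the widest spread of the set. Its levels were 1.15, 2.94 and 4.0 in HF and 1.4, 2.65 and 3.8 in HFT, a range of 7.23-fold from HF 12 to HF 9. The difference was 0.08 (SE 0.40, interval -0.77 to 0.94), and the other Elovl6 probe gave 0.04 (SE 0.39). The 2 probes followed each other over the 16 animals (r = 0.93, rho = 0.91), so the spread was seen by both. Scd, the desaturase, had the narrowest spread, with levels of 7.91, 8.26 and 8.33 in HF and 7.81, 8.09 and 8.57 in HFT. HFT animals held both the lowest and the highest Scd level, and the difference was -0.05 (SE 0.10, interval -0.26 to 0.16).

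Malic enzyme (Me1) makes NADPH in the cytosol, and its levels were 4.54, 6.0 and 6.77 in HF and 4.50, 5.83 and 6.90 in HFT. The difference was 0.10 (SE 0.35, interval -0.64 to 0.84), and 0.11 (SE 0.36) by its other probe. The 2 probes of Me1 had r = 0.95 and rho = 0.94. Transketolase (Tkt), of the pentose phosphate pathway, had levels of 6.95, 7.62 and 7.88 in HF and 6.6, 7.33 and 7.89 in HFT. Only 1 of the 8 HFT animals was above the HF median of Tkt, but the groups overlapped and the difference was -0.15 (SE 0.19, interval -0.55 to 0.24). Thrsp, a nuclear protein that promotes lipogenesis and follows thyroid hormone, had levels of 5.50, 6.67 and 6.90 in HF and 5.80, 6.71 and 6.98 in HFT. Its lowest value, in HF 8, stood well apart from the other 7 HF animals, and the difference was 0.04 (SE 0.19, interval -0.36 to 0.45).

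**Figure D1:**
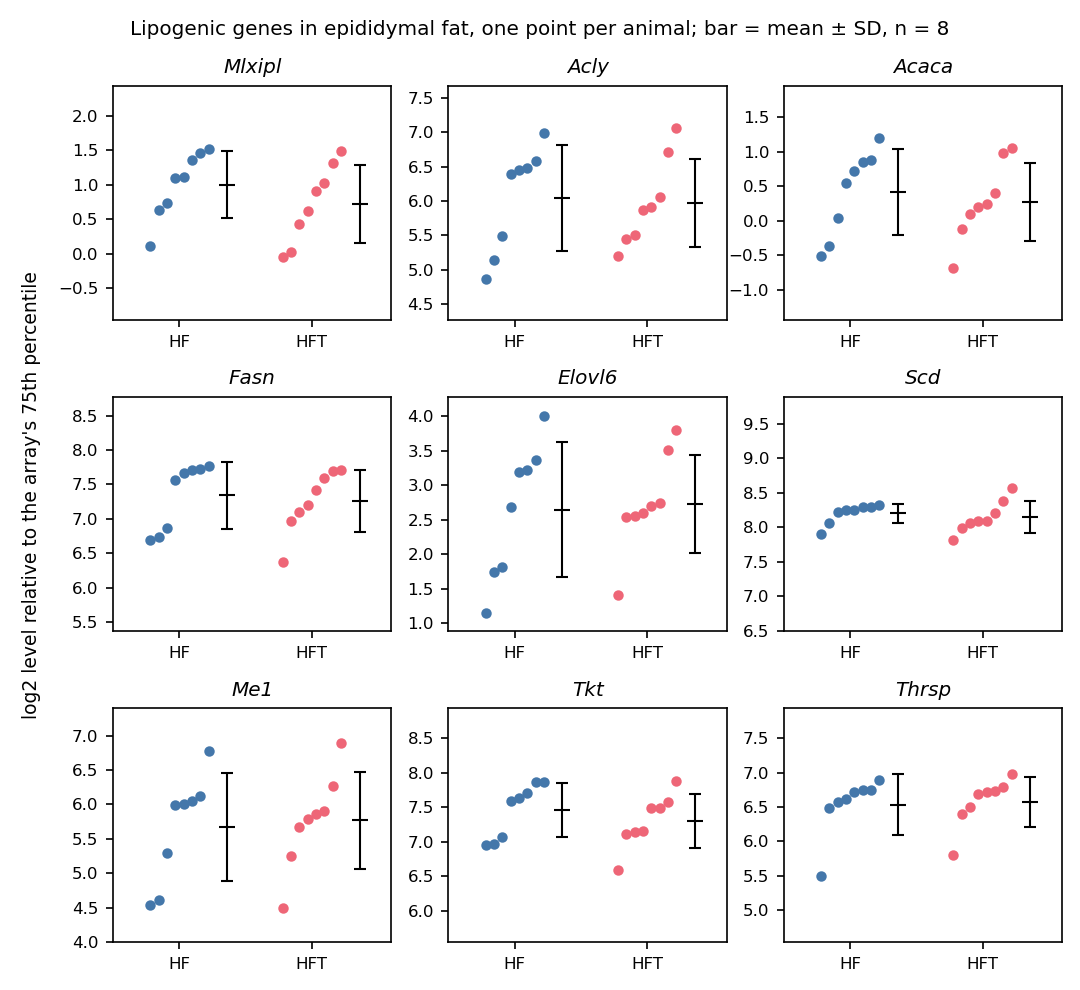
Levels of the 9 measured lipogenic genes (log2, relative to the array's 75th percentile) in HF and HFT, each panel on its own axis of equal length; points are animals, sorted by value within a group, and bars are the mean ± SD of 8. The groups overlap in every panel, and the spread is narrow in Scd and wide in Elovl6.

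Over all 21808 probes kept, 0% passed an adjusted p of 0.05 in limma and 2.36% an unadjusted p of 0.05 (1.13% higher and 1.23% lower in HFT). Of the 9 genes, 0 passed either threshold, with adjusted p-values of 1.0 after rounding. The difference was above 0 for 3 genes and below 0 for 6, with a median of -0.08 against -0.02 over all probes. The intervals are wide: the median SE of the 9 genes was 0.25, against 0.13 for all probes. For Mlxipl, Fasn, Acaca, Acly, Elovl6 (brighter probe) and Tkt, slide 3 was the only slide with a difference above 0. The sign of these small differences was not stable. Without the 9 arrays high for Lcn5 or any marker list, which left 4 HF and 3 HFT animals, the differences of Acaca and Acly turned to 0.35 and 0.37, and those of Mlxipl, Fasn, Scd and Tkt to 0.09, 0.17, 0.10 and 0.02, with 0 called.

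**Figure D2:**
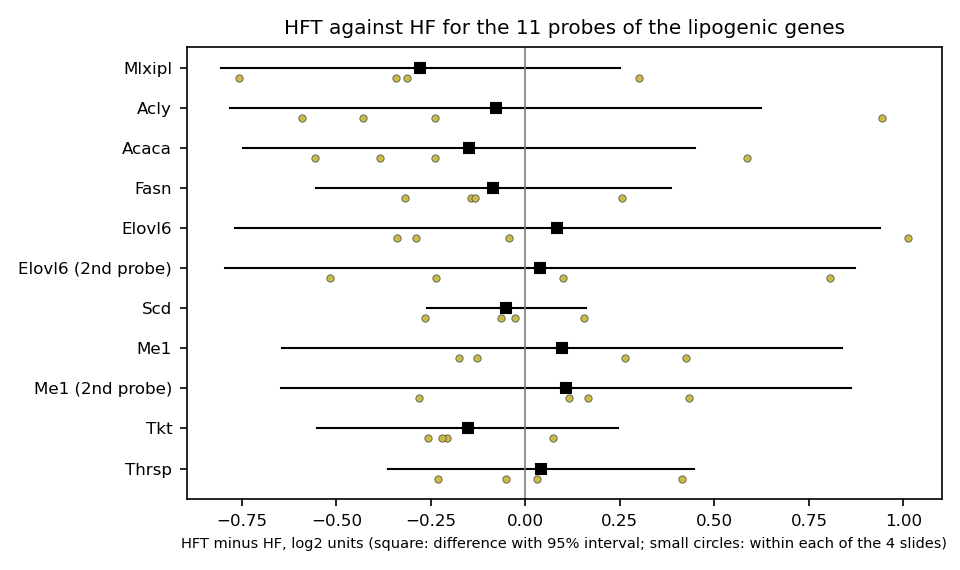
HFT minus HF in log2 units for the 11 probes of the 9 lipogenic genes; squares are the difference with its 95% interval over 16 animals and small circles are the differences within each of the 4 slides. Every interval includes 0, and the circles of a gene lie on both sides of 0.

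Animals of the same group differed from each other by more than the groups did. Over the 16 animals the SD of the level was 0.83 for Elovl6, 0.72 for Me1, 0.68 for Acly, 0.58 for Acaca, 0.53 for Mlxipl, 0.45 for Fasn, 0.39 for Thrsp, 0.39 for Tkt and 0.19 for Scd. The median over the 9 genes was 0.53, against 0.26 over all kept probes. Elovl6, Me1 and Acly lay at the 93.1, 91.3 and 90.6 percentiles of all probes, and Scd at the 28.6 percentile. Replicate spots of a probe on an array had SDs of 0.03 to 0.10, below the SD over animals by 2.33-fold for Scd, 5.39-fold for Mlxipl and 8.34-fold or more for the other 7 genes. The Scd spread depended on the scaling, with an SD of 0.081 after quantile normalization. Other spreads shrank less under the alternative processings, with lowest SDs of 0.28 for Tkt, 0.35 for Fasn and 0.79 for Elovl6. Group accounted for 0.28% to 7.40% of a gene's variance over the animals (the highest for Mlxipl), and slide, with 4 levels, for 8.82% (Scd) to 44.0% (Tkt). These shares are not to be set against each other, since a factor with more levels takes more variance by chance. The part of slide was not tested.

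The same animals were high or low for most of the genes. HFT 28 was among the lowest 4 animals for all 9 genes, and its mean rank was 1.56 on a scale from 1 (lowest) to 16. HF 8, HF 12, HFT 22 and HF 13 followed, with mean ranks of 3.56, 3.89, 4.11 and 4.89. At the other end stood HFT 26, HF 9 and HFT 24, at 13.7, 13.6 and 13.3. Both groups were present at both ends. The 75th percentile subtracted from an array's levels was highest for HFT 28, at 1366 intensity units. For HFT 26, HF 9 and HFT 24 it was 858, 911 and 995. HF 12, HFT 22 and HF 13 had 1025, 1069 and 1071, but HF 8 had 790. The part of the scaling in this order was not tested. HF 8 and HFT 28 were also high for Lcn5, HFT 22 and HFT 24 for urothelial genes and HF 9 for smooth muscle genes, while HF 12, HF 13 and HFT 26 were high for none of the marker lists.

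**Figure D3:**
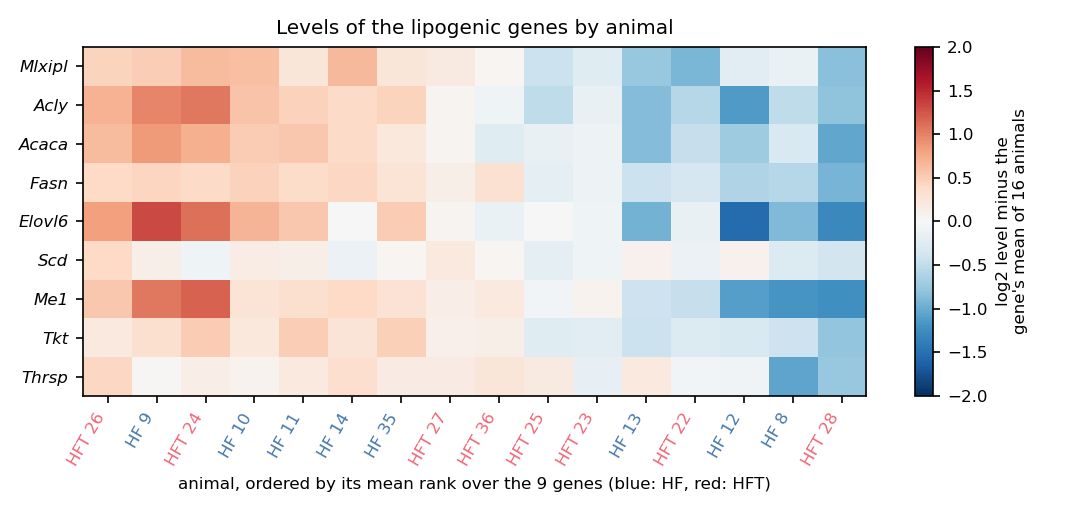
Level of each lipogenic gene in each of the 16 animals, minus the gene's mean over the animals (log2 units, by colour), with animals ordered by their mean rank over the 9 genes and named in blue for HF and red for HFT. HFT 28 is low and HFT 26, HF 9 and HFT 24 are high for most genes, and HF and HFT animals are mixed along the order.

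Of the 8 other genes, 6 followed Mlxipl across the animals after adjustment over these 8 relations (permutation tests with 100000 resamples, two-sided, n = 16). Acaca came closest, with r = 0.89 (p = 1.0e-05, the smallest the resamples can give, adjusted p = 8.0e-05) and rho = 0.86 (adjusted p = 0.00018). Acly had r = 0.87 (p = 2.0e-05, adjusted p = 8.0e-05) and rho = 0.86 (adjusted p = 0.00018). Fasn had r = 0.86 (p = 7.0e-05, adjusted p = 0.00014) and rho = 0.87 (adjusted p = 0.00018). These 3 are the enzymes from citrate to palmitate, and their r was 0.88, 0.88 and 0.84 without HFT 22 and HFT 28, the 2 animals farthest from the Mlxipl median. Tkt had r = 0.86 (p = 5.0e-05, adjusted p = 0.00013) and rho = 0.84 (adjusted p = 0.00022). Me1 had r = 0.75 (p = 0.00097, adjusted p = 0.0016) and rho = 0.86 (adjusted p = 0.00018), and Elovl6 r = 0.72 (p = 0.0016, adjusted p = 0.0022) and rho = 0.76 (adjusted p = 0.0016). Without the same 2 animals r was 0.84 for Tkt, 0.69 for Me1 and 0.74 for Elovl6.

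Scd and Thrsp did not pass. For Scd r was 0.50 (p = 0.0498, adjusted p = 0.057) and rho 0.48 (p = 0.064, adjusted p = 0.073), with r = 0.29 without the 2 farthest animals. For Thrsp r was 0.43 (p = 0.092, adjusted p = 0.092) and rho 0.39 (p = 0.14, adjusted p = 0.14), with r = 0.27 without them. The Scd value depended on the scaling of the arrays, since r was -0.18 after quantile normalization, -0.12 after normexp correction and -0.06 in the authors' deposited log2 values. Whether Scd and Thrsp differ in r from the other 6 was not tested. Leaving out HF 8 or HF 13 brought both past the threshold on r (Scd r = 0.51 and 0.59, Thrsp r = 0.56 and 0.53) but neither on rho (adjusted p of 0.10 and 0.051 for Scd and 0.18 and 0.062 for Thrsp). Leaving out HFT 24 or HF 14 brought Scd past it on both (r = 0.57 and 0.59, rho = 0.58 and 0.61).

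**Figure D4:**
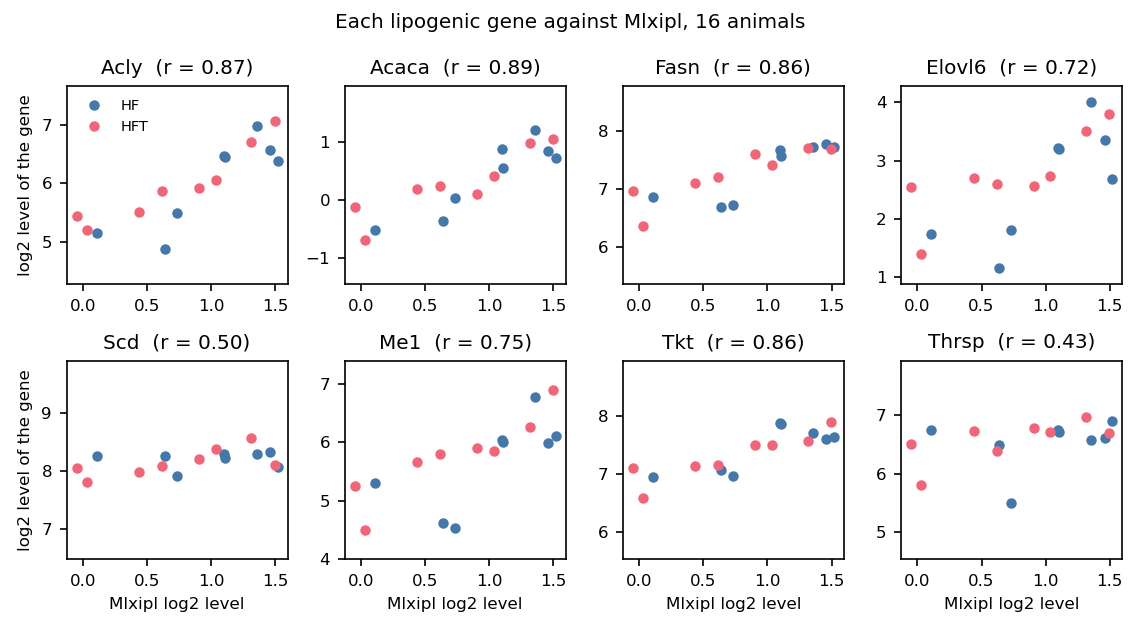
Level of each of the other 8 lipogenic genes against the level of Mlxipl (both log2, relative to the array's 75th percentile), 1 point for each of 16 animals, blue for HF and red for HFT. Acaca, Acly, Fasn and Tkt rise along a line with Mlxipl in both groups, and Scd and Thrsp scatter.

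The slides hold 4 arrays each, too few for a correlation within a slide, so the values were centred by slide and group instead. Then r was 0.71 (Elovl6) to 0.90 (Acaca) for the 6 genes above, 0.73 for Scd and 0.58 for Thrsp, whose rho was 0.32. Each slide holds 2 arrays of a group, so the centred values of such a pair mirror each other. The permutation test took all 16 values as independent, so its p-values are too small here and no gene is called from them. Centred by group alone, 6 passed the adjusted threshold on r and 6 on rho. Without the 6 arrays high for Lcn5 or urothelial genes, 6 passed on r among the 10 animals left, with r of 0.87 for Acaca, Acly and Fasn alike, and 5 on rho, without Elovl6 (rho = 0.62, adjusted p = 0.079). In the 7 animals high for neither Lcn5 nor any marker list, 4 passed on r by an exact permutation test (Acaca, Acly, Fasn and Tkt, r from 0.85 to 0.87). Me1 and Elovl6 did not (r = 0.69 and 0.63, adjusted p = 0.13 and 0.17). On rho 4 passed by the exact permutation test as well, but with Me1 (rho = 0.86, adjusted p = 0.048) in place of Acly (rho = 0.79, adjusted p = 0.077).

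The relation has to be read beside that of other probes, which share the same arrays and scaling. Over the 21807 other kept probes the median r with Mlxipl was 0.09, with the 5th and 95th percentiles at -0.46 and 0.62, and 21 probes (0.0963%) reached 0.85. By r, Acaca, Acly, Fasn and Tkt ranked 5, 10, 12 and 17 among these probes, and Me1, Elovl6, Scd and Thrsp 214, 297, 2673 and 3787. The other probe of Me1 had r = 0.61 and rank 1171, and that of Elovl6 r = 0.74 and rank 229. Bright probes leaned towards Mlxipl as a class: among the 513 with a mean level over 5, where Fasn, Scd, Acly, Me1, Thrsp and Tkt lie, the median r was 0.51 and 1.17% reached 0.85.

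Among themselves the 9 genes had a median r of 0.85 over 36 pairs (0.43 to 0.96), and 28 pairs passed an adjusted permutation p of 0.05 on r and 23 on rho. The 21 pairs without Scd and Thrsp, a split made after their values were seen, had r from 0.72 to 0.96 and all passed. Of the 8 pairs with Scd 3 passed on r and 1 on rho, and of the 8 with Thrsp 5 and 1.

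The content of fat cells can differ between pieces of tissue, and in bulk RNA fewer cells and less RNA per cell cannot be told apart. The mean level of 16 fat cell markers ran from 3.59 in HF 8 and 3.6 in HFT 28 to 4.48 in HF 12. Thrsp followed this mean, with r = 0.78 (adjusted permutation p = 0.0057 over the 9 genes) and rho = 0.68 (adjusted p = 0.043), but r was 0.47 without the 2 animals farthest from its median. For Scd r was 0.57 (adjusted p = 0.091), and for the other 7 genes r lay between -0.02 and 0.35, with no adjusted p below 0.55. Without the same 2 animals, HF 8 and HFT 28, r was 0.20 for Scd and below 0 for these 7, from -0.11 (Mlxipl) to -0.51 (Me1) and -0.56 (Elovl6). With the marker mean as a covariate, the r with Mlxipl was 0.89 for Acaca, 0.89 for Acly and 0.87 for Fasn.

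Other genes of the pathway, in lists fixed by function, also showed no adjusted call. Of the genes that supply acetyl-CoA 11 of 12 were measured, 0 passed an unadjusted p of 0.05, and the median r with Mlxipl was 0.56. Slc25a10, a mitochondrial dicarboxylate carrier, had r = 0.72 and Pdha1, a subunit of pyruvate dehydrogenase, r = 0.71, while Acss2, which makes acetyl-CoA from acetate, had the smallest p of the list for HFT against HF (difference -0.18, SE 0.23, unadjusted p = 0.460, adjusted p = 1.0, limma). Of the NADPH genes 7 of 10 were tested and 1 passed the unadjusted threshold: mitochondrial isocitrate dehydrogenase Idh2, at 4.77 ± 0.27 (SD, n = 8) in HF and 4.46 ± 0.22 (SD, n = 8) in HFT, had a difference of -0.31 (SE 0.12, unadjusted p = 0.0220, adjusted p = 1.0, limma). Taldo1, an enzyme of the pentose phosphate pathway, had r = 0.68 with Mlxipl, the highest of this list. The median of the list was 0.45 and the lowest r was -0.07 (Idh1).

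Of the elongation and desaturation genes 14 of 18 were tested and 0 passed the unadjusted threshold. Their median r with Mlxipl was 0.22, and the lowest was -0.17 (Mcat). Mid1ip1, a relative of Thrsp that activates acetyl-CoA carboxylase, had the highest, r = 0.78. Tecr, the reductase of the elongation cycle, had r = 0.60. Mcat, the malonyl transferase of mitochondria, had a difference of -0.22 (SE 0.14, unadjusted p = 0.157, adjusted p = 1.0, limma). Of the genes that control SREBP 17 of 18 were tested and 1 passed unadjusted: Ppargc1b, a coactivator of SREBP, at -0.30 ± 0.24 (SD, n = 8) in HF and -0.78 ± 0.34 (SD, n = 8) in HFT. Its difference was -0.47 (SE 0.14, unadjusted p = 0.0047, adjusted p = 1.0, limma), with the highest level in HF 35 and the lowest in HFT 28, and it was -0.36 (SE 0.11) without HFT 28. Rxra and Srebf2 had r of 0.71 and 0.62 with Mlxipl, the highest of this list. The median of the list was 0.26 and the lowest r was -0.46 (Usf1).

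Of the ChREBP partners and targets 11 of 13 were tested and 0 passed the unadjusted threshold. Hk2 (hexokinase) and Slc2a4 (the insulin-responsive glucose transporter) followed Mlxipl most closely of this list, with r = 0.85 (rho = 0.88) and r = 0.83 (rho = 0.82), and Mlx, the partner with which ChREBP binds DNA, had r = 0.62. The median r of the list with Mlxipl was 0.37, and 2 of its genes reached 0.7. Other targets lay near 0 or below it, with r of 0.001 for Pklr, -0.10 for Khk, -0.39 for Txnip and -0.44 for Tkfc. Slc2a4 had a difference between the groups of -0.24 (SE 0.20, unadjusted p = 0.240, adjusted p = 1.0, limma). The 20 cholesterol synthesis genes had a median difference of 0.09, against -0.02 over all probes, and 0 passed the unadjusted threshold. Of these genes 18 lay above 0, and this shared direction was not tested. Their median r with Mlxipl was 0.43. These r values describe the arrays and carry no test.

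**Figure D5:**
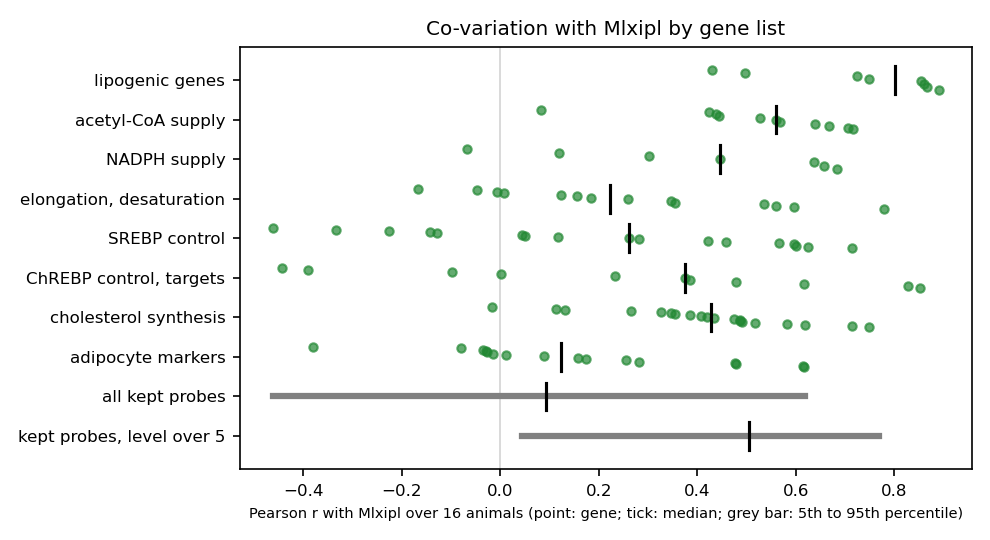
Pearson r with Mlxipl over 16 animals for each gene of the lipogenic set and of the lists around it. Points are genes and ticks are medians. Grey bars span the 5th to 95th percentile of all kept probes (-0.46 to 0.62) and of those with a mean level over 5 (0.05 to 0.77). Acaca, Acly, Fasn, Tkt, Me1 and Elovl6 lie to the right of most genes of the other lists, with Hk2 and Slc2a4 among the exceptions. Scd (0.50) and Thrsp (0.43) lie below the median of the acetyl-CoA supply list (0.56).

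The genes most like Mlxipl over the 16 arrays, among 10589 genes above background throughout, were Or4a77 (r = 0.95), Alad (0.90), mrpl11 (0.89), Psmd9 (0.88), Bud23 (0.88) and Noc4l (0.87). Those most like the mean of the other 8 genes, each scaled to the same spread, were Or4a77 (r = 0.93), Rab34 (0.93), Alad (0.93), Pdha1 (0.92), Tectb (0.90) and Mpc1 (0.90). Pdha1 and Mpc1 belong to the mitochondrial pyruvate steps that feed citrate synthesis. Each of these genes, Or4a77 and Tectb among them, stands on 1 probe whose identity was not checked further. These are descriptions over 16 arrays that share their slides and scaling, with no test.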

How the data were processed

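The RNA of 16 epididymal fat samples (8 HF, 8 HFT) was measured on single-colour arrays. The deposited intensities came from Agilent Feature Extraction 10.7.3.1, per the submitters' processing notes, and were background-subtracted and detrended, per the file headers, with no normalization between arrays. A second table held log2 values made by the authors, and the sources used here do not give its normalization. Each of its columns matched its own array best (r of 0.998 or more), and column medians lay at 7.33 to 7.36.

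Log2 processed intensities were centred on each array's 75th percentile, replicate spots were averaged, and 21808 of 30344 probes were kept, those well above background on 4 or more of the 8 arrays of a group. Probes were named through RefSeq accessions (17997 probes). Where a gene had several probes, the brightest gave its value. HFT was compared with HF over all kept probes by limma 3.58.1 (R 4.3.3), adjusted by Benjamini-Hochberg, threshold 0.05. Correlations had permutation tests (numpy 2.4.6, with ranks from scipy 1.17.1), two-sided, exact at 7 animals. Those planned for Srebf1 were not run, so the family held 8 relations. The normexp alternative used the median spot signal (offset 50). The scripts were tested on simulated data.

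The members and lists were chosen with earlier results of these data known. All members were named, and from each list around them up to 3 genes, of smallest p or largest r with Mlxipl, and the 6 genes most like Mlxipl or the mean of the others. 1 gene that the rule named is not reported here. No columns were left unassigned. Precision is limited by the number of arrays.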

Additional observations from a re-analysis of the deposited data

Results flagged for a closer look

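The Thrsp level of HF 8 was 5.50, while the nearest of the other 7 HF animals was at 6.49. This gap was 0.709 of the range of the group, above Dixon's 95% critical value for 8 animals. It was the only such value among 18 groups tested (9 genes in HF and in HFT), and chance alone gives about 1 in 20. HF 8 also had the lowest mean of the fat cell markers (3.59) and was high for the epididymal gene Lcn5 (4.12). Their part in the low Thrsp value was not tested. Without HF 8 the Thrsp difference between HFT and HF was -0.11.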

How the results depend on the processing

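With 8 animals a group and a median SE of 0.25, only large differences could pass, and 0 of the 9 genes were called under each alternative run. The number of genes correlated with Mlxipl on r was 6 under most alternatives. It was 4 in the 7 animals high for neither Lcn5 nor any marker list, and 6 to 8 with 1 animal left out (6 to 7 on rho). With slide as a block 8 passed on r and 7 on rho, but those p-values are too small, since centred values of a pair mirror each other. On rho the number was also 5 without arrays high for Lcn5 or urothelial markers and 7 with the fat cell marker mean as a covariate. The Fasn difference changed sign without arrays high for epididymal markers (0.042) or for those or urothelial markers (0.097). It also did so without arrays high for Lcn5 or urothelial markers (0.051), or for Lcn5 or any list (0.17). Scd did so with normexp (0.016) and the authors' values (0.043). Its sign also changed on leaving out arrays high for epididymal or urothelial markers (0.049), Lcn5 or urothelial markers (0.040), or Lcn5 or any list (0.096). Acly did so without arrays high for epididymal markers (0.031), those or urothelial markers (0.019) or hepatocyte markers (0.0039), with array weights (0.016), and without any high array (0.37). Without any high array Acaca (0.35), Mlxipl (0.089) and Tkt (0.018) turned too. Leaving out 1 animal at a time, the difference ran from -0.18 to 0.042 for Fasn, -0.25 to 0.055 for Acly, -0.13 to 0.28 for Elovl6, -0.066 to 0.28 for Me1 and -0.11 to 0.15 for Thrsp. The r of Scd with Mlxipl was -0.18 (quantile), -0.12 (normexp) and -0.058 (authors' values), and that of Idh2 was -0.12 with slide as a block. The cause of these changes was not tested. The Lcn5, hepatocyte and any-list alternatives were chosen after seeing the data. No paired analysis was possible because the groups share no replicate number.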
